A study of Mus musculus with 12 samples.

Results

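Sncaip, Camkk1, Rnf144b, Tusc1 and Car4 are 5 of the 23362 genes counted in these libraries. They were chosen by their lower read counts without Xbp1 in cultured progenitors transduced with GATA2, so their genotype difference at that stage is given as a description and was not tested. The libraries came from 4 groups of C57BL/6 mouse cells with 3 libraries each. They were Xbp1-deficient (KO) and wild-type (WT) granulocyte-macrophage progenitors (GMP) that had been purified by flow cytometry, given GATA2 by transduction, sorted again and kept in culture for 48 hours (GATA2-GMP), and KO and WT GMP sorted straight into Trizol. GMP give rise to granulocytes and monocytes, and GATA2 is a transcription factor of the eosinophil, basophil and mast cell lineages. Both stages were sequenced from polyadenylated RNA with a TruSeq kit. For GATA2-GMP this followed a SMARTer low-input RNA kit, so that stage, transduction, culture and kit change together and cannot be told apart. The Xbp1 allele, its driver, the vector and the animals behind each library are not given in the sources used here, and p-values therefore measure the spread between these libraries, which may be technical.

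XBP1 carries part of the unfolded protein response as a DNA-binding activator. When unfolded proteins build up in the endoplasmic reticulum (ER), the sensor IRE1 splices Xbp1 mRNA into its active form, and XBP1 then raises the genes with which the ER imports, folds and exports proteins. None of the 5 genes described here encodes a part of that machinery. Synphilin-1, the product of Sncaip, is a scaffold protein that binds alpha-synuclein and is known mostly from neurons. Camkk1 encodes a kinase that is switched on by calcium-bound calmodulin and in turn activates the kinases CaMKI and CaMKIV. Rnf144b encodes a ubiquitin ligase of the RBR type, a gene that p53 induces in human cells. Tusc1 is a candidate tumour suppressor named from human lung cancer. Car4 encodes a carbonic anhydrase, which converts carbon dioxide and water into bicarbonate and protons. The CAR4 protein is held on the outer face of the plasma membrane by a glycosylphosphatidylinositol (GPI) anchor. It is thus not a part of the secretory machinery, but it is a product made in the ER, and the description "non-secretory" holds for it in the first sense only.

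The 250 bases before each start site were searched on both strands for letters that the factors of this design are known to bind. The core of the unfolded protein response element was searched as TGACGTG. The ER stress response element was searched in full, and its closing box, which overlaps the full element, alone as CCACG. The GATA motif was searched as AGATAA. RefSeq gave 5 start windows for 4 of the 5 genes on build GRCm38.p6. CCACG was in 3 of them, and 28.3% of 32817 windows of all genes held it. None of the 5 windows held the response element core (1.65% of all windows), the full ER stress element (0.113%) or the GATA motif (9.99%). The windows of Tusc1 and of the first start of Rnf144b held none of these motifs and are not shown. The windows with CCACG are shown for that match alone. They read 5′ to 3′ on the plus strand, with CCACG or its reverse complement in capitals.
Camkk1, chr11:73018738-73018987: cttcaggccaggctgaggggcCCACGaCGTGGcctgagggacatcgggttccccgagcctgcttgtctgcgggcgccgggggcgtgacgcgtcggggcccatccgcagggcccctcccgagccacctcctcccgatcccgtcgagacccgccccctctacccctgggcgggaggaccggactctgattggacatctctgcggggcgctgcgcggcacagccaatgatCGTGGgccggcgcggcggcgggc
Car4, chr11:84957504-84957753: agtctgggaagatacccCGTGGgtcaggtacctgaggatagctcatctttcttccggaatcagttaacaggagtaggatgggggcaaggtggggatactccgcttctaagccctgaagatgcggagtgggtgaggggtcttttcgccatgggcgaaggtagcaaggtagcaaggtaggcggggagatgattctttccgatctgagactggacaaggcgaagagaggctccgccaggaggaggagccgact
Rnf144b, second start, chr13:47193753-47194002: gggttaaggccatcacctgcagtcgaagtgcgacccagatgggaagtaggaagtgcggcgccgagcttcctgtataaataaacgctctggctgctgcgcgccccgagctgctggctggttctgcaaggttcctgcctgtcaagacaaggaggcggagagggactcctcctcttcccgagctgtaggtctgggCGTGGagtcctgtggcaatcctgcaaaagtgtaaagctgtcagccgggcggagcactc
Camkk1 had 3 matches, of which 2 face each other 1 base apart, and Car4 and the second start of Rnf144b had 1 each. A match says only that these letters are there, and binding was not measured.

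Library totals ran from 8219366 to 33640911 counts, and the smallest was GMP KO 3. Xbp1 had 76.9, 93.7 and 98.7 CPM in GATA2-GMP KO, against 293, 207 and 151 CPM in GATA2-GMP WT. In GMP it had 115, 70.6 and 76.0 CPM in KO, against 170.1, 173 and 202 CPM in WT. At both stages all KO libraries were below all WT libraries, although reads from exons outside a deleted part would still be counted. CPM here are counts scaled to the library total as counts per 1000000, adjusted by the TMM method among the 6 libraries of a stage unless the 12 libraries are named. Summed over 8 eosinophil markers (Prg2, Prg3, Epx, Ear1, Ear2, Il5ra, Ccr3 and Siglec5), the level was 55749.6 to 67781.4 CPM over 12 libraries in GATA2-GMP KO, 134638.2 to 205028.1 CPM in GATA2-GMP WT, 317.4 to 641.2 CPM in GMP KO and 76.7 to 270.1 CPM in GMP WT. Progenitor markers (Cd34, Kit, Flt3, Mpo, Elane, Prtn3 and Ctsg) summed to 2242.4 to 2616.8 CPM in GATA2-GMP KO, 3091.3 to 3724.8 in GATA2-GMP WT, 21748.6 to 25799.7 in GMP KO and 25358.2 to 27970.0 in GMP WT. None of these markers was at 0 in a whole group, and the progenitor sum was highest in the GMP libraries, as their label says.

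On build mm9, with gene models of GENCODE M1, Sncaip lies on chromosome 18 from 52927363 to 53075585 (plus strand), Camkk1 on chromosome 11 from 72832510 to 72855575 (plus), Rnf144b on chromosome 13 from 47218089 to 47343360 (plus), Tusc1 on chromosome 4 from 93000839 to 93002202 (minus) and Car4 on chromosome 11 from 84771288 to 84779546 (plus). Tusc1 has 1 exon of 1364 bases, and the others have 9 to 15 merged exons. No exon of the 5 overlapped an exon of another gene on either strand in these models, which may differ from those the authors counted on.

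Sncaip had the widest genotype difference of the 5 in GATA2-GMP. It had 9, 8 and 4 reads in GATA2-GMP KO 1 to 3, against 283, 134 and 216 reads in GATA2-GMP WT 1 to 3. Scaled, that is 0.404, 0.395 and 0.232 CPM in KO, against 16.9, 6.48 and 9.66 CPM in WT. Every KO library was far below every WT library, and the KO level rests on 21 reads in all. KO over WT, the log2 fold change was -4.95 (SE 0.49), a 31.0-fold difference.

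Camkk1 had 2.07, 2.32 and 2.03 CPM in GATA2-GMP KO, against 18.5, 9.82 and 10.3 CPM in GATA2-GMP WT. The KO libraries lay close together, and WT 1 stood above the other two WT libraries. The log2 fold change was -2.58 (SE 0.34), a 5.99-fold difference. Rnf144b, with the most reads of the 4 genes detected at both stages, had 15.5, 17.2 and 16.5 CPM in GATA2-GMP KO, against 60.9, 31.5 and 46.3 CPM in GATA2-GMP WT. Its groups did not overlap either, and its log2 fold change of -1.495 (SE 0.27) was the smallest in size among the 5.

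Tusc1 had 1.35, 1.43 and 1.51 CPM in GATA2-GMP KO, against 7.75, 5.66 and 4.65 CPM in GATA2-GMP WT, from 26 to 30 reads and 104 to 130 reads per library. The KO libraries again spread little, and the log2 fold change was -2.07 (SE 0.35). Car4, the membrane carbonic anhydrase, had 16.5, 34.9 and 29.7 CPM in GATA2-GMP KO, against 229, 91.5 and 258 CPM in GATA2-GMP WT. Its WT 2 was low among the WT libraries and still above each KO library. Car4 had a log2 fold change of -2.83 (SE 0.43), a 7.13-fold difference.

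All 5 genes had non-overlapping groups with KO lower in GATA2-GMP, which the choice of the genes fixes. Of 11699 genes tested there, 22.6% had groups that did not overlap, 12.2% with KO lower and 10.4% with KO higher. At an adjusted p under 0.05, 0.274% were called lower and 0.103% higher. The libraries of GATA2-GMP WT varied more than those of KO for each of the 5. The coefficient of variation over 3 libraries was 48.3% for Sncaip, 46.1% for Car4, 37.7% for Camkk1, 31.8% for Rnf144b and 26.2% for Tusc1 in WT. In KO it was 28.2% for Sncaip, 35.0% for Car4, 7.34% for Camkk1, 5.41% for Rnf144b and 5.63% for Tusc1. WT 1 held the highest level among WT libraries for Sncaip, Camkk1, Rnf144b and Tusc1, and WT 3 for Car4. WT 1 was also the highest of the WT libraries for Xbp1. How many of all genes share the wider WT spread or the high WT 1 was not counted, so neither sets the 5 genes apart.

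The eosinophil markers were lower in the same KO libraries. Of the 8, all had a log2 fold change below 0 in GATA2-GMP, with a median of -2.15 and a range of -6.51 to -1.02, and edgeR called 2 of them (Ear1 and Ear2, ribonucleases of eosinophils) lower. Both calls were lost without KO 1 (edgeR adjusted p = 0.0952) and without KO 3 (edgeR adjusted p = 0.0584). The 5 genes lay between -4.95 and -1.495 in the same fit. In bulk RNA, fewer cells of a type and less RNA per cell cannot be told apart, and the part of the marker difference in the levels of the 5 genes was not tested. Mast cell and basophil markers summed to 7094.8 to 12859.1 CPM over 12 libraries in GATA2-GMP KO and 3872.8 to 12765.0 in GATA2-GMP WT. Neutrophil markers summed to 36621.8 to 61531.8 CPM in GATA2-GMP KO and 40607.5 to 72279.2 in GATA2-GMP WT, so neither sum separated the genotypes. Of 9 mast cell and basophil markers 2 had a log2 fold change below 0, with a median of 0.81, and of 8 neutrophil markers 1, with a median of 0.45, against all 8 of the eosinophil markers. The fall was not particular to eosinophil markers. Progenitor markers also had 5 of 6 tested below 0, with a median of -0.43, and their sums given above did not overlap between the genotypes. Below 0 were also 2 of 3 erythroid and megakaryocyte markers tested and 1 of 5 monocyte and macrophage markers.

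**Figure D1:**
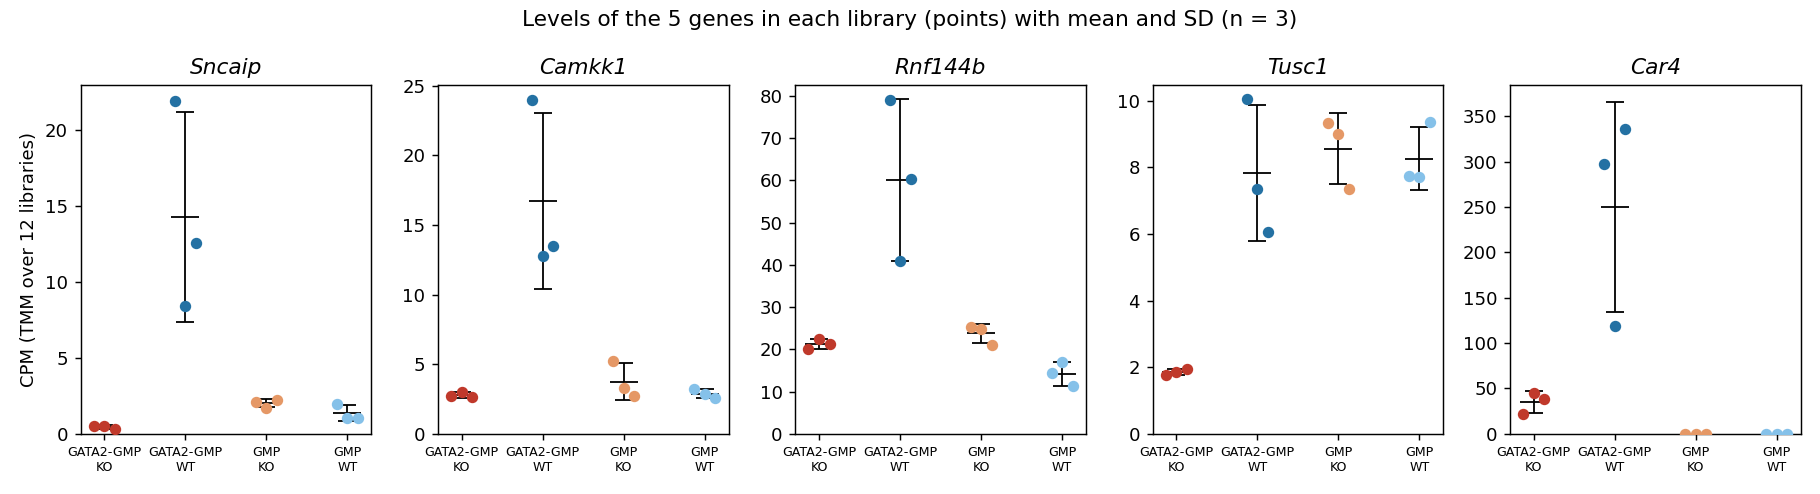
Level of each gene in CPM, scaled over 12 libraries, with 1 point per library and the mean and SD of 3 libraries per group. Sncaip, Camkk1, Rnf144b and Car4 are highest in GATA2-GMP WT, Tusc1 is lowest in GATA2-GMP KO, and Car4 is at 0 in the 6 GMP libraries.

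The rule that chose the genes used no freshly sorted GMP, although earlier results of these data were known at that time. In GMP the genotype was tested with edgeR's quasi-likelihood test, with Benjamini-Hochberg adjustment over 12002 genes. None of the 4 genes with enough reads had a log2 fold change below 0. Rnf144b rose in KO, and Sncaip, Camkk1 and Tusc1 did not pass the threshold. Car4 had 0 reads in all 6 GMP libraries and was not tested.

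Rnf144b had 32.3, 31.4 and 28.2 CPM in GMP KO 1 to 3, against 18.6, 22.0 and 14.9 CPM in GMP WT 1 to 3. Each KO library was above each WT library. Its log2 fold change was 0.73 (SE 0.12, edgeR adjusted p = 0.00625), with a 95% interval of 0.46 to 0.998, and the call held with each library left out in turn (adjusted p 0.000922 to 0.0371). Rnf144b was thus 1 called gene of 4 tested. Of all genes tested in GMP 3.17% were called, 0.658% higher and 2.52% lower in KO. Groups did not overlap for 20.2% of them, 9.48% with KO higher and 10.7% with KO lower. That background rests on 381 calls, 79 higher and 302 lower. With the replicate number as a block there were 964 calls, 396 higher and 568 lower, so the share called higher was larger in that fit. Calls numbered 237 without GMP WT 3 and 209 without GMP KO 3.

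Sncaip had 2.65, 2.18 and 2.997 CPM in GMP KO, against 2.54, 1.35 and 1.39 CPM in GMP WT, from 21 to 75 reads per library. WT 1 lay among the KO libraries, and the log2 fold change was 0.52 (SE 0.28, edgeR adjusted p = 0.429; 95% interval -0.085 to 1.12). Camkk1 had 6.71, 4.18 and 3.596 CPM in GMP KO, against 4.15, 3.73 and 3.43 CPM in GMP WT. KO 1 was the highest of the 6, whose other values lay within 3.43 to 4.18 CPM. The log2 fold change was 0.39 (SE 0.22, edgeR adjusted p = 0.465; 95% interval -0.10 to 0.88). Without KO 1 it was 0.073 (edgeR adjusted p = 0.934). Under the other settings the adjusted p ran from 0.253 with the replicate block in edgeR to 0.695 with DESeq2. Tusc1 had 11.9, 11.4 and 9.83 CPM in GMP KO, against 10.01, 9.99 and 12.3 CPM in GMP WT, which overlap fully. Its log2 fold change was 0.058 (SE 0.12, edgeR adjusted p = 0.879; 95% interval -0.21 to 0.33).

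The lowest bound among these 4 intervals was -0.21, for Tusc1, and the log2 fold changes of the same genes in GATA2-GMP ran from -4.95 to -1.495. In a fit of the 4 groups together, the genotype difference in GATA2-GMP minus that in GMP was -5.51 (SE 0.60) for Sncaip, -2.98 (SE 0.44) for Camkk1, -2.24 (SE 0.32) for Rnf144b and -2.13 (SE 0.33) for Tusc1. These differences were not tested, since the GATA2-GMP libraries in each chose the genes. Eosinophil markers were higher in GMP KO, with the sums given above separate from those of WT; of 6 tested, 5 lay above 0, their median log2 fold change was 1.22 and the smallest edgeR adjusted p was 0.115, for Il5ra. Neutrophil markers summed to 35.7 to 138.0 CPM in GMP KO and 15.3 to 37.4 CPM in GMP WT, and of 7 tested 0 had a log2 fold change below 0, with a median of 2.51. Other lists were mixed. Of 7 monocyte and macrophage markers tested 2 lay below 0, with a median of 0.25, and edgeR called 0. Their sums overlapped, at 1164.9 to 1731.9 CPM in GMP KO and 1079.7 to 1438.1 CPM in GMP WT. Of 3 erythroid and megakaryocyte markers tested 3 lay below 0, with a median of -0.65. Of 7 progenitor markers tested in GMP 5 lay below 0, with a median of -0.28, and edgeR called 1 lower. Of 6 mast cell and basophil markers 3 lay below 0, with a median of -0.10, and edgeR called 1 higher. The part of any of these markers in the level of Rnf144b was not tested.

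**Figure D2:**
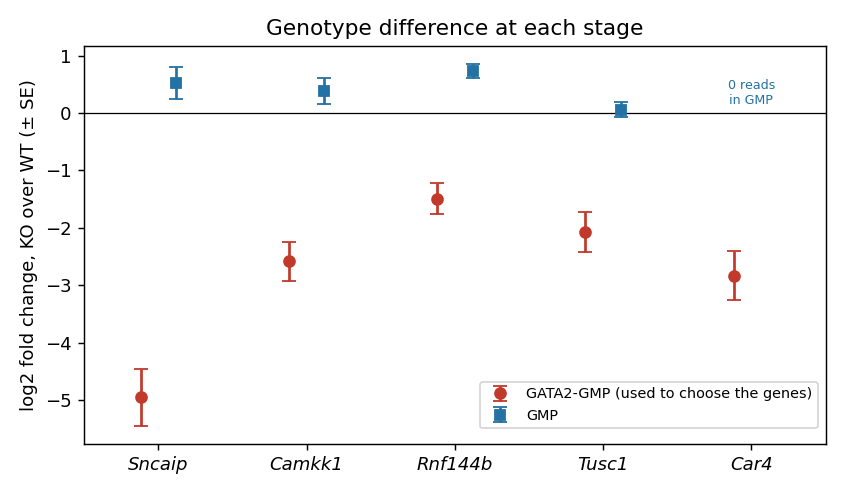
Log2 fold change, KO over WT, with its SE from 3 libraries per group, for GATA2-GMP (circles, the comparison that chose the genes) and GMP (squares). The GMP values lie between 0.058 and 0.73 and the GATA2-GMP values between -4.95 and -1.495.

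The levels at both stages were set side by side on CPM scaled over all 12 libraries, as a description. Sncaip averaged 0.446 ± 0.126 CPM in GATA2-GMP KO, 14.3 ± 6.90 in GATA2-GMP WT, 2.01 ± 0.263 in GMP KO and 1.35 ± 0.532 in GMP WT (SD, n = 3 each). The GMP groups overlap, and GATA2-GMP KO lay below both. Camkk1 averaged 2.77 ± 0.205 CPM in GATA2-GMP KO, 16.7 ± 6.29 in GATA2-GMP WT, 3.75 ± 1.34 in GMP KO and 2.89 ± 0.303 in GMP WT (SD, n = 3 each). On this scale GATA2-GMP WT stood apart, and GATA2-GMP KO overlapped GMP WT and GMP KO.

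Rnf144b averaged 21.2 ± 1.14 CPM in GATA2-GMP KO, 60.1 ± 19.1 in GATA2-GMP WT, 23.7 ± 2.33 in GMP KO and 14.2 ± 2.83 in GMP WT (SD, n = 3 each). On this scale the 2 KO groups overlap and lie between the WT groups. Tusc1 averaged 1.85 ± 0.101 CPM in GATA2-GMP KO, 7.82 ± 2.04 in GATA2-GMP WT, 8.56 ± 1.06 in GMP KO and 8.26 ± 0.942 in GMP WT (SD, n = 3 each). On this scale its other 3 groups overlap, and GATA2-GMP KO is the group apart. Car4 averaged 35.0 ± 12.2 CPM in GATA2-GMP KO and 250.4 ± 115.7 in GATA2-GMP WT (SD, n = 3 each), with 0 reads in each GMP library.

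The log2 fold change between stages (GATA2-GMP over GMP) is given for each genotype. In KO it was -2.12 (SE 0.46) for Sncaip, -0.45 (SE 0.31) for Camkk1, -0.16 (SE 0.22) for Rnf144b and -2.21 (SE 0.25) for Tusc1. In WT it was 3.39 (SE 0.39) for Sncaip, 2.53 (SE 0.31) for Camkk1, 2.08 (SE 0.23) for Rnf144b and -0.08 (SE 0.23) for Tusc1. Taking 3 counts over the GMP group as the limit that 0 reads allow, Car4 was at least 965-fold higher in GATA2-GMP KO than in GMP KO and at least 5716-fold higher in GATA2-GMP WT than in GMP WT, bounds that cover counting error only. With library totals alone these bounds were at least 608-fold in KO and at least 3223-fold in WT.

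These stage values, and which groups overlap, depend on the scaling. With library totals alone the median log2 fold change of all 12803 genes was -0.72 in KO and -0.90 in WT, against -0.06 and -0.07 with TMM. On that scale Tusc1 had -0.92 (SE 0.21) in WT, and in KO Camkk1 had -1.11 (SE 0.31) and Rnf144b -0.83 (SE 0.22). Camkk1 in GATA2-GMP KO, at 1.96 to 2.56 CPM, then lay below GMP KO, at 3.65 to 6.73 CPM, and GMP WT, at 3.33 to 4.09 CPM. Rnf144b in GATA2-GMP KO, at 15.9 to 19.0 CPM, then lay below GMP KO, at 28.6 to 32.3 CPM, and overlapped GMP WT, at 14.5 to 22.0 CPM. GMP KO in turn reached into the range of GATA2-GMP WT, at 29.4 to 54.4 CPM. Tusc1 in GATA2-GMP WT, at 4.61 to 6.92 CPM, then lay below GMP KO, at 9.98 to 11.9 CPM, and GMP WT, at 9.88 to 11.96 CPM, so that GATA2-GMP KO was no longer the single low group. Relative to the median of all genes, both scales place Rnf144b in KO and Tusc1 in WT close to it.

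Per kilobase of exon the order of the 5 genes differed between stages. In GATA2-GMP WT the level was 127 ± 58.9 CPM per kilobase for Car4, 12.8 ± 4.07 for Rnf144b, 5.73 ± 1.496 for Tusc1, 4.49 ± 1.69 for Camkk1 and 3.56 ± 1.72 for Sncaip (SD, n = 3). In GMP WT it was 6.06 ± 0.690 for Tusc1, 3.03 ± 0.603 for Rnf144b, 0.776 ± 0.0813 for Camkk1, 0.336 ± 0.133 for Sncaip and 0 for Car4. In GATA2-GMP WT the spreads of Tusc1, Camkk1 and Sncaip overlap, so their order is not resolved. Exon lengths came from GENCODE M1, which may differ from the annotation used for counting.

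For each gene, the 3 genes with the most similar profile over the 12 libraries were taken from 12798 others by the root mean square difference of log2 CPM, each gene centred on its own mean. Camkk1 was closest to Arsb (0.27), which encodes a lysosomal sulfatase and then to Siglec5 (0.41), one of the eosinophil markers above. Arsb averaged 231 CPM in GATA2-GMP KO, 1025 in GATA2-GMP WT, 228 in GMP KO and 253 in GMP WT, so that it too was high in GATA2-GMP WT alone. Sncaip was also closest to Arsb (0.98), followed by Efna4 (1.01), an ephrin ligand, and Postn (1.08), the matrix protein periostin. These distances are larger than those of Camkk1, and in all 3 GATA2-GMP KO libraries Sncaip lay below its nearest genes on the centred scale.

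Rnf144b was closest to Fam101b (0.29), Neu1 (0.37), the lysosomal sialidase, and H1f0 (0.38), a linker histone. Fam101b averaged 51.4 CPM in GATA2-GMP KO, 103.6 in GATA2-GMP WT, 40.1 in GMP KO and 27.3 in GMP WT, the same order of WT groups around KO groups as Rnf144b. Tusc1 was closest to Sac3d1 (0.21), Sapcd2 (0.28) and Ndnl2 (0.29). Sac3d1 averaged 5.26 CPM in GATA2-GMP KO, 17.8 in GATA2-GMP WT, 17.4 in GMP KO and 17.3 in GMP WT. Car4 was closest to Grm6 (0.90), a glutamate receptor, Tarm1 (1.03), a receptor of myeloid cells, and Ceacam10 (1.03), all of which were at or near 0 in GMP as Car4 was. Ceacam10 averaged 70.5 CPM in GATA2-GMP KO and 72.4 CPM in GATA2-GMP WT. Among the 5 genes themselves, Camkk1 and Rnf144b were the most alike (0.46), followed by Sncaip and Camkk1 (0.85), and Car4 and Tusc1 the least (5.48).

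**Figure D3:**
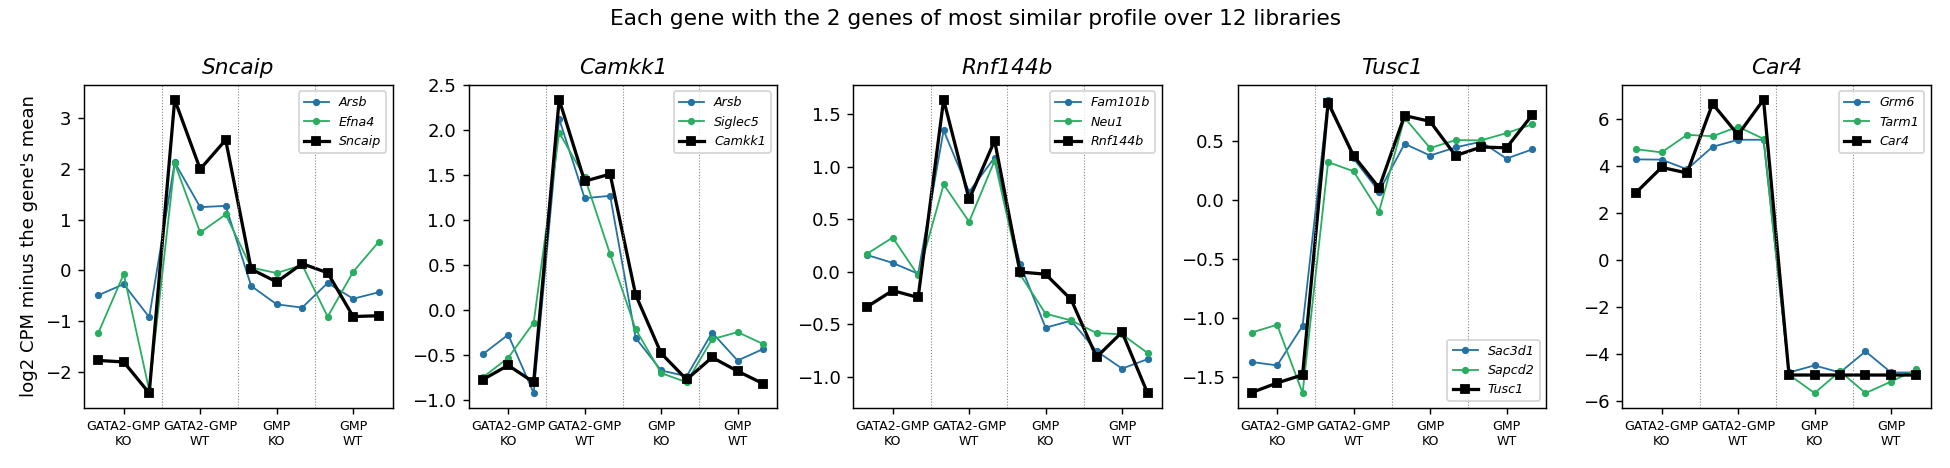
Log2 CPM of each gene (black) and of the 2 genes most like it (colours), centred on each gene's mean over 12 libraries, with the 3 libraries of each group side by side and lines only to guide the eye. Camkk1 and Arsb differ by a root mean square of 0.27, and Sncaip in GATA2-GMP KO lies below its nearest genes.

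The partners and relatives of the 5 genes were taken from 6 lists, and a list is described by its calls and its median beside those of all genes tested. Across the lists few genes were called in either comparison, and in GATA2-GMP edgeR called none with the low-count filter and all 6 libraries. With no filter edgeR called Camk1d (adjusted p = 0.0225), Phlda3 (adjusted p = 0.0167) and Pigh (adjusted p = 0.0240), the same 3 that DESeq2 called. Over all genes edgeR with no filter called 294 and DESeq2 called 504, so these 3 calls stand beside a larger background. With the filter the edgeR background in GATA2-GMP was 44 calls of 11699 genes (0.376%). It moved with single libraries, to 525 without WT 3, 28 without WT 2, 8 without WT 1, 20 without KO 2 and 0 without KO 1 or KO 3. In GMP the background was 381 calls of 12002 genes (3.17%), and single calls in a list are read beside it. At an unadjusted p under 0.05 by edgeR, in either direction, were 1743 of 11699 genes in GATA2-GMP and 1737 of 12002 in GMP. The unadjusted counts of the lists below stand beside that background and are not read as a shift of a list. The median log2 fold change of all genes was -0.00 in GATA2-GMP and 0.01 in GMP.

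For the synucleins, the ubiquitin ligases that act on synphilin-1 and other genes of inherited Parkinson disease (11 genes), 6 were tested in GATA2-GMP and 7 in GMP. EdgeR called none at either stage, with 0 at an unadjusted p under 0.05 and 0 by DESeq2. The medians were -0.21 in GATA2-GMP and -0.15 in GMP. Siah2, a ligase that ubiquitinates synphilin-1, had 6.70 ± 0.546 CPM in GATA2-GMP KO and 10.03 ± 2.21 CPM in GATA2-GMP WT (SD, n = 3 each) and a log2 fold change of -0.58 (SE 0.27, edgeR adjusted p = 0.359). Siah1b, of the same ligase family, had -0.58 (SE 0.36, edgeR adjusted p = 0.497). In GMP the smallest p-values were those of Siah2 at -0.25 (SE 0.11, edgeR adjusted p = 0.347) and of the kinase gene Lrrk2 at 0.17 (SE 0.092, edgeR adjusted p = 0.421).

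For the calmodulin-dependent kinases, calmodulin, AMPK and its kinase Stk11 (20 genes), 15 were tested in GATA2-GMP and 18 in GMP. In GMP 1 rose, Camkk2, the relative of Camkk1 that also activates AMPK. It had 145, 137 and 142 CPM in GMP KO, against 107, 113 and 120 CPM in GMP WT, without overlap. The log2 fold change was 0.32 (SE 0.060, edgeR adjusted p = 0.0112), and the threshold was missed without GMP KO 3 (adjusted p = 0.0579) and without GMP WT 1 (adjusted p = 0.0529), within 0.000650 to 0.0579 over all settings. In GATA2-GMP edgeR called none, with 4 lower and 0 higher at an unadjusted p under 0.05. Without WT 3 it called 2, Camk1, a kinase that CAMKK1 activates, at -1.29 (SE 0.31, edgeR adjusted p = 0.0438) and Camk4, another, at 1.93 (SE 0.34, edgeR adjusted p = 0.0203), named after their values were seen. With all 6 libraries they had -0.99 (SE 0.37, edgeR adjusted p = 0.261) and 1.04 (SE 0.50, edgeR adjusted p = 0.382). The median of the list was -0.22, against 0.02 in GMP. Camk1d, a form of CaMKI and so a substrate of CAMKK1, had 6.43, 7.99 and 8.13 CPM in GATA2-GMP KO, against 18.4, 11.2 and 23.8 CPM in GATA2-GMP WT. Its log2 fold change was -1.25 (SE 0.31, edgeR adjusted p = 0.129), and DESeq2 called it as the only gene of the list (adjusted p = 0.0165, the lowest of a range that reached 0.482). Prkab1, an AMPK subunit, had -0.70 (SE 0.20, edgeR adjusted p = 0.162).

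For the other RBR ligases and the ubiquitin-conjugating enzymes that serve them (15 genes), 14 were tested at each stage. EdgeR and DESeq2 called none, and none had an unadjusted p under 0.05. The medians were -0.10 in GATA2-GMP and 0.02 in GMP. Rnf144a, the closest relative of Rnf144b, had 13.9 ± 1.54 CPM in GATA2-GMP KO and 9.64 ± 1.91 CPM in GATA2-GMP WT (SD, n = 3 each) and a log2 fold change of 0.52 (SE 0.26, edgeR adjusted p = 0.383). Ube2l6, a conjugating enzyme, had 0.66 (SE 0.32, edgeR adjusted p = 0.379). In GMP the smallest p-values were those of Rnf217 at 0.20 (SE 0.12, edgeR adjusted p = 0.499) and Rnf19b at 0.11 (SE 0.075, edgeR adjusted p = 0.558).

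For 20 targets of p53, all tested at both stages, edgeR called none. At an unadjusted p under 0.05, 4 were lower and 0 higher in GATA2-GMP, and 1 was lower and 0 higher in GMP. DESeq2 called 1 lower in GATA2-GMP and 0 in GMP. The medians were -0.19 in GATA2-GMP and 0.03 in GMP. The gene that DESeq2 called was Phlda3, an inhibitor of AKT signalling, with 0.539, 0.592 and 1.45 CPM in GATA2-GMP KO, against 5.60, 2.18 and 3.62 CPM in GATA2-GMP WT. Its log2 fold change was -2.15 (SE 0.55, edgeR adjusted p = 0.132). Ei24, an ER membrane protein gene, had -0.90 (SE 0.28, edgeR adjusted p = 0.188). In GMP the stress-response genes Sesn1 and Sesn2 had the smallest p-values, with -0.25 (SE 0.074, edgeR adjusted p = 0.104) and 0.40 (SE 0.22, edgeR adjusted p = 0.454), and the replicate block called Sesn1 (adjusted p = 0.0115, the lowest of a range that reached 0.301).

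For the other carbonic anhydrases and the bicarbonate carriers (22 genes), 12 were tested in GATA2-GMP and 10 in GMP. EdgeR and DESeq2 called none, and none had an unadjusted p under 0.05. The medians were 0.26 in GATA2-GMP and -0.07 in GMP. Car12, another membrane carbonic anhydrase, had 4.73 ± 1.68 CPM in GATA2-GMP KO and 1.71 ± 1.37 CPM in GATA2-GMP WT (SD, n = 3 each) and a log2 fold change of 1.45 (SE 0.70, edgeR adjusted p = 0.380). Slc4a7, a sodium-bicarbonate carrier, had -0.51 (SE 0.25, edgeR adjusted p = 0.392). In GMP the smallest p-values were those of the carrier Slc4a8 at 0.19 (SE 0.097, edgeR adjusted p = 0.416) and of the cytosolic enzyme Car3 at -0.31 (SE 0.19, edgeR adjusted p = 0.495).

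For the enzymes that build, attach and trim the GPI anchor (28 genes, 27 found), 27 were tested in GATA2-GMP and 25 in GMP. In GMP 1 fell, Pigk, the catalytic subunit of the transamidase that joins the anchor to proteins. It had 62.0, 65.4 and 68.6 CPM in GMP KO, against 79.98, 79.1 and 79.8 CPM in GMP WT. Pigk had a log2 fold change of -0.29 (SE 0.060, edgeR adjusted p = 0.0184), with the threshold missed without GMP WT 1 (adjusted p = 0.0802) and without GMP WT 2 (adjusted p = 0.0649), within 0.00281 to 0.0802 over all settings. With the replicate number as a block 4 genes of the list were called in GMP, Pigk and Pigg as lower and Pigb and Pigs as higher. Over all genes that fit gave 964 calls, so the 4 are not read as a shift of the list. In GATA2-GMP edgeR called none, with 3 higher and 2 lower at an unadjusted p under 0.05 and 1 higher by DESeq2. That gene was Pigh, of the enzyme that makes the first sugar intermediate of the anchor, with 8.54, 5.53 and 8.82 CPM in GATA2-GMP KO, against 2.03, 3.24 and 2.51 CPM in GATA2-GMP WT. Its log2 fold change was 1.55 (SE 0.34, edgeR adjusted p = 0.0960). Pigx, of the first mannosyl transfer, had -0.77 (SE 0.26, edgeR adjusted p = 0.221). The medians were 0.17 in GATA2-GMP and 0.01 in GMP.

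**Figure D4:**
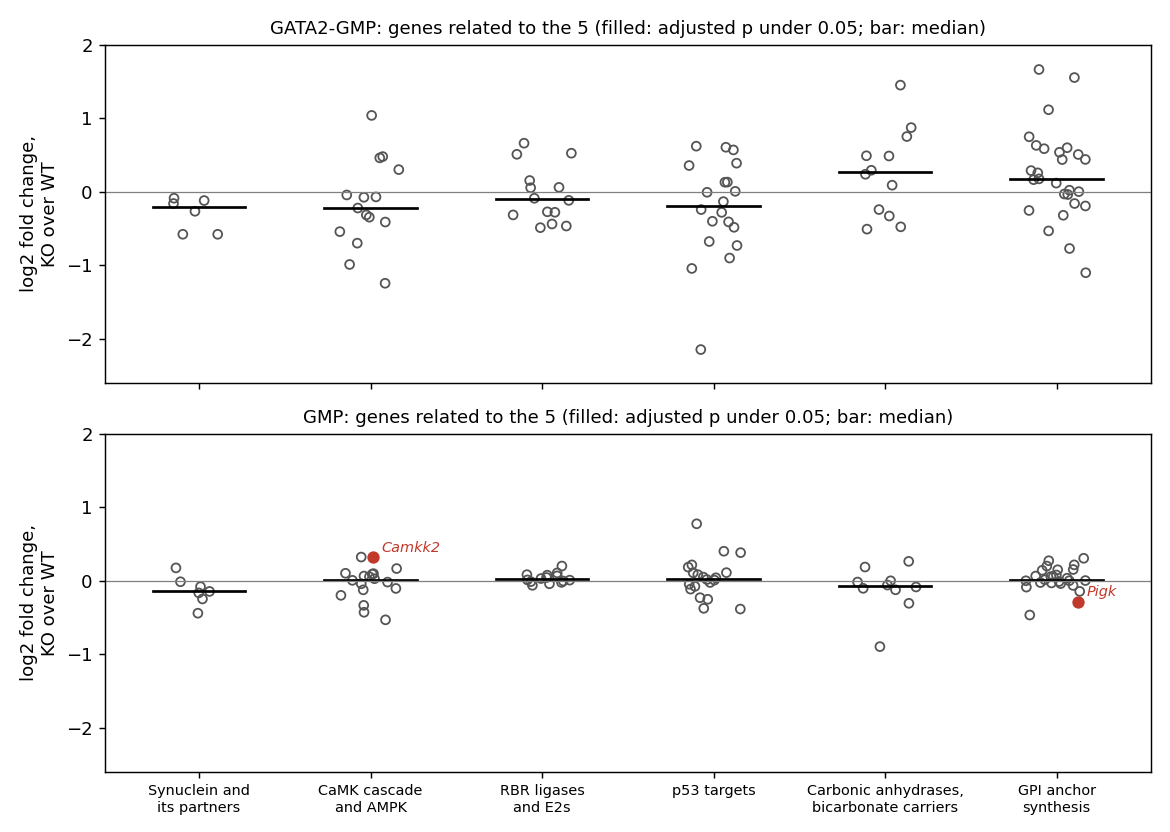
Log2 fold change, KO over WT, of each tested gene of the 6 lists (1 point per gene) in GATA2-GMP (top) and GMP (bottom), with the median of the list as a bar. Camkk2 at 0.32 and Pigk at -0.29 in GMP are the 2 genes called.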

How the data were processed

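Polyadenylated RNA of 12 libraries was counted per gene symbol, and the values used are the raw counts as the authors deposited them, 1 table per library, with no normalization: each table holds whole numbers, and the sums differ. The submitters' processing notes list HTSeq, DESeq, SAMtools 0.1.14, STAR 2.3.0 and the build mm9, with no roles. The annotation and strand setting are not given in the sources used here. The 5 closing rows for reads given to no gene (55.8 to 66.5% of records) were set aside. Of the GMP gene names, 27 had become dates. From the GATA2-GMP names 23 were restored, and 4 genes with ambiguous dates were left out, which left 23362.

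EdgeR 4.0.16 in R 4.3.3 was used: TMM scaling after filterByExpr, then estimateDisp, a robust glmQLFit and glmQLFTest and Benjamini-Hochberg adjustment over all genes tested at 0.05, on the 6 libraries of a stage. It was tested on simulated data with independent libraries and the same dispersion for every gene. That check does not cover the uneven spread of the GATA2-GMP libraries. Each SE comes from the log2 fold change and the root of its F. DESeq2 1.42.0, RLE factors, no filter, a replicate block and leaving out each library were alternatives. The intervals of fold changes are at 95%. Stage values came from a fit of all 4 groups.

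Libraries of GMP with the same replicate number deviated together (correlations 0.318, 0.249 and 0.192 across genes between KO and WT), so the block applies there. The GMP values above nevertheless come from the fit without the block, unless the block is named. The block changed no call of the 5 genes. Genes most like a member were compared on log2 CPM with a prior count of 2, and 1 of these genes is not reported here. The members and lists were chosen with earlier results of these data known, and lists were written from general knowledge. Of each list, the genes called in a comparison were named (at most 4), or the 2 with the smallest p where none was.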

Additional observations from a re-analysis of the deposited data

Results flagged for a closer look

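Rnf144b was marked because its KO libraries were all above the WT libraries in GMP and all below them in GATA2-GMP. Its log2 fold change was -1.495 in GATA2-GMP and 0.73 in GMP, a difference of -2.23 between the separate fits. The difference was not tested, since the GATA2-GMP comparison chose the gene.

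Camkk2, the relative of Camkk1, was marked for the same reason. It had 13.5, 12.2 and 12.2 CPM in GATA2-GMP KO, against 18.5, 15.2 and 14.6 CPM in GATA2-GMP WT, a log2 fold change of -0.35 (SE 0.23, edgeR adjusted p = 0.521). In GMP the log2 fold change was 0.32. The difference of -0.663 between the stages was not tested. Of all genes tested, 9.48% had KO higher without overlap in GMP, and 12.2% had KO lower without overlap in GATA2-GMP. The share of all genes with both was not counted, so neither mark sets Rnf144b or Camkk2 apart from other genes.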

How the results depend on the processing

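Each of the 4 genes tested in GMP kept its direction and its side of the threshold under DESeq2, RLE factors, no filter, the replicate block and with each library left out. Over these alternatives the log2 fold change ran from 0.60 to 0.88 for Rnf144b, 0.34 to 0.89 for Sncaip, 0.07 to 0.52 for Camkk1 and 0.01 to 0.16 for Tusc1. With the replicate block they were 0.72, 0.53, 0.35 and 0.08 in that order. In GATA2-GMP, with each library left out, the values were -5.23 to -4.52 for Sncaip, -2.75 to -2.24 for Camkk1 and -1.71 to -1.25 for Rnf144b. They were -2.23 to -1.85 for Tusc1 and -3.18 to -2.57 for Car4. No alternative moved a value by more than the SD between libraries, but leaving out a library could hardly do so. These values also chose the genes, so the ranges are a description.

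Counts of called genes moved more. In GMP the 381 calls became 964 with the replicate block and 209 to 398 with a library left out. In GATA2-GMP the 44 calls became 504 with DESeq2, 294 with no filter and 3 with the replicate block, and 0 to 525 with a library left out. The fits with 0 calls had 1000 genes (without KO 1) and 1444 genes (without KO 3) at an unadjusted p under 0.05, and DESeq2 was not run on them. Libraries of GATA2-GMP with the same number did not deviate together (correlations -0.16, -0.31 and -0.49). KO 1 and KO 2 deviated with WT 3 (0.320 and 0.391), and KO 3 with WT 1 and WT 2 (0.209 and 0.363), so no pairing by number was assumed there. The cause of these moves was not tested.

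With library totals alone, a scaling added after seeing the data, the log2 fold changes between stages were -2.78 for Sncaip, -1.11 for Camkk1, -0.83 for Rnf144b and -2.88 for Tusc1 in KO, and 2.55, 1.68, 1.24 and -0.92 in WT. The lower bound for Car4 became 608-fold in KO, against 965-fold, and 3223-fold in WT, against 5716-fold. Of the 15 places for genes most like a member, 13 went to the same gene with a prior count of 0.5. Depth limits Sncaip in GATA2-GMP KO (4 to 9 reads per library) and Car4 in GMP (0 reads).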
